A study of Mus musculus with 35 samples.

Results

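C1qa, C1qb and C1qc encode the A, B and C chains of C1q, the recognition protein that starts the classical complement pathway, and Serping1 encodes C1 inhibitor, the serpin that blocks the proteases bound to C1q. These 4 genes were taken by name from the 760 genes of a NanoString nCounter panel for Alzheimer disease, which counts a fluorescent barcode for each target RNA in mouse hippocampus. In the complement cascade, C1q bound to a surface activates the proteases C1r and C1s, which cleave C4 and C2 and lead to deposition of C3. In the brain C1q is made chiefly by microglia, and it can tag synapses for removal, a process described in mouse models of Alzheimer disease and in ageing. C1 inhibitor is a secreted protein made by several cell types, and it also restrains the contact system of kinin release.

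The hippocampi came from 35 mice, each 18 months old and labelled with a C57BL6/J background, in 5 groups. All received oral gavage for 5 months. The ADPolB_UA group (6 mice, 4 females and 2 males) was heterozygous for the Polbtm1Rsky allele, which removes 1 copy of the gene of DNA polymerase beta, on the 3xTgAD genotype Tg(APPSwe,tauP301)L1Lfa with Psen1tm1Mpm, and received Urolithin A at 200 mg/kg per day. ADPolB_veh mice (7, with 3 females and 4 males) had the same genotype and received vehicle. The AD_UA group (7, with 3 females and 4 males) was 3xTgAD with Urolithin A, the AD_veh group (8, with 4 females and 4 males) was 3xTgAD with vehicle, and the WT_veh group (7, with 4 females and 3 males) was wild type with vehicle. Urolithin A, which gut bacteria make from plant ellagitannins, is known as an inducer of mitophagy. There were no wild-type mice with Urolithin A and no Polb heterozygotes without the transgenes, so both effects were measured only among 3xTgAD mice.

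The 3 C1q genes lie next to each other. On the mouse GRCm38.p6 assembly C1qb is at chr4:136880126-136886200, C1qc at chr4:136889801-136892936 and C1qa at chr4:136895916-136898844, with gaps of 3600 and 2979 bases, and 0 other genes of the assembly's gene table lie between them. Serping1 is on another chromosome, at chr2:84765360-84775444. Because the levels of the C1q chains followed one another across mice, the 250 bases before the start site are shown for the chains with an entry in the RefSeq promoter table of that assembly. Each is on the minus strand and written 5′ to 3′, C1qb from chr4:136886201-136886450 and C1qc from chr4:136892915-136893164. The C1qc start of that table lies inside the gene span given above, so 22 bases of its window are within the gene. Capitals mark matches, on either strand, to GAGGAA, the core bound by the myeloid factor PU.1, or to TGCTGA, a half-site of MAF family factors.
C1qb: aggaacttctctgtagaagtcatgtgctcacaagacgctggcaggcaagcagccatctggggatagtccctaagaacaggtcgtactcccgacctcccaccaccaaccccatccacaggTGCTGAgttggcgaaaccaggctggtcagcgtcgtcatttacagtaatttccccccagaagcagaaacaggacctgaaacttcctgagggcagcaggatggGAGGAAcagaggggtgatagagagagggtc
C1qc: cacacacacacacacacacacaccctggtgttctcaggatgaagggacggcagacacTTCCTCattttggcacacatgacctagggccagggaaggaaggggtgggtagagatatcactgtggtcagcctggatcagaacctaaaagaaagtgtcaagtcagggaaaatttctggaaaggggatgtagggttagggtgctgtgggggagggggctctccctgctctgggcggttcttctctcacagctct
GAGGAA was found once in each window, beginning 30 bases before the C1qb start and 193 bases before the C1qc start, where it reads TTCCTC. The half-site TGCTGA was found once in the C1qb window, at 131 bases, and had 0 matches in the C1qc window. The core of an interferon-stimulated response element, 2 copies of GAAA with any 2 bases between them, had 0 matches in either window. The matches did not overlap. GAGGAA is in 23.3% of the 32851 windows of this length in the promoter table, TGCTGA in 16.1% and the interferon core in 2.98%. These matches describe the letters of the windows only.

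The values are the authors' normalized barcode counts, read here as log2 from their range since no label names the scale, and every fold rests on that reading. They were used with the raw barcode counts not used here, so the number of mice limits the precision. Levels of different genes come from different probes, so no gene's level is set against another's. The median over the 760 genes ranged between 8.60 and 9.12 across mice. None of the 8 listed hippocampal marker genes was in the panel, so the labelled region was not checked against them. One of 8 striatal markers was measured, Adora2a, an adenosine receptor gene. It stood at 9.85 in AD_veh 2, 8.60 in AD_UA 3 and 7.13 in AD_UA 8, all males. The next values were 6.07 in ADPolB_UA 6, a female, and 4.79 in ADPolB_veh 6. Group and sex values that AD_veh 2, AD_UA 3 and AD_UA 8 moved are also given without these 3 mice. That cut was chosen after seeing the data and kept ADPolB_UA 6, the lowest female of its group in C1qa (10.05) and Serping1 (6.90).

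C1qa had its highest group mean in ADPolB_veh and its lowest in WT_veh. In ADPolB_UA mice it ran between 9.72 and 11.04 with a median of 10.445, and in ADPolB_veh mice between 9.10 and 12.01 with a median of 10.52. In AD_UA mice it ran between 8.93 and 11.07 with a median of 9.86, in AD_veh mice between 9.23 and 11.76 with a median of 9.98, and in WT_veh mice between 9.01 and 11.04 with a median of 9.91. The group means were 10.42 ± 0.57 (SD, n = 6) in ADPolB_UA, 10.64 ± 0.97 (n = 7) in ADPolB_veh, 9.97 ± 0.76 (n = 7) in AD_UA, 10.18 ± 0.91 (n = 8) in AD_veh and 9.89 ± 0.70 (n = 7) in WT_veh. The ranges of all 5 groups overlapped, and each pair of neighbours in the order of means differed by less than the SD within either group. The lowest of the 35 mice was AD_UA 3 and the highest ADPolB_veh 6.

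C1qb, the B chain, averaged 10.68 ± 0.51 (SD, n = 6) in ADPolB_UA, 10.90 ± 0.87 (n = 7) in ADPolB_veh, 10.32 ± 0.65 (n = 7) in AD_UA, 10.52 ± 0.85 (n = 8) in AD_veh and 10.24 ± 0.64 (n = 7) in WT_veh. The lowest, median and highest values were 9.99, 10.76 and 11.24 in ADPolB_UA, 9.50, 10.82 and 12.10 in ADPolB_veh, 9.55, 10.18 and 11.25 in AD_UA, 9.73, 10.30 and 11.98 in AD_veh, and 9.41, 10.23 and 11.31 in WT_veh. The order of the means was that of C1qa, with overlap of every pair of groups.
C1qc, the C chain, averaged 9.79 ± 0.58 in ADPolB_UA, 10.02 ± 0.81 in ADPolB_veh, 9.37 ± 0.66 in AD_UA, 9.59 ± 0.87 in AD_veh and 9.26 ± 0.54 in WT_veh, with the same numbers of mice. Its values spanned 9.09 to 10.40 in ADPolB_UA, 8.71 to 11.16 in ADPolB_veh, 8.46 to 10.30 in AD_UA, 8.73 to 11.04 in AD_veh and 8.51 to 10.13 in WT_veh, with medians of 9.80 in ADPolB_UA, 9.90 in ADPolB_veh, 9.35 in AD_UA, 9.43 in AD_veh and 9.37 in WT_veh. It again had the same order of means and overlapping ranges.

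Serping1 also had its 2 highest means in the Polb+/- groups, but its other 3 means lay close together, with AD_UA not below AD_veh. Its values were 6.89, 7.815 and 8.09 (lowest, median and highest) in ADPolB_UA, 6.68, 7.66 and 8.42 in ADPolB_veh, 5.24, 7.54 and 8.41 in AD_UA, 6.23, 6.875 and 8.07 in AD_veh, and 6.28, 6.84 and 8.00 in WT_veh. Means were 7.59 ± 0.56 (SD, n = 6) in ADPolB_UA, 7.66 ± 0.54 (n = 7) in ADPolB_veh, 7.04 ± 1.08 (n = 7) in AD_UA, 7.00 ± 0.67 (n = 8) in AD_veh and 7.00 ± 0.73 (n = 7) in WT_veh. The lowest values, 5.24 in AD_UA 3 and 6.08 in AD_UA 8, belonged to mice high in Adora2a, and every pair of groups overlapped. An alternative that left out the 25% of genes with the lowest mean values left out Serping1.

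**Figure D1:**
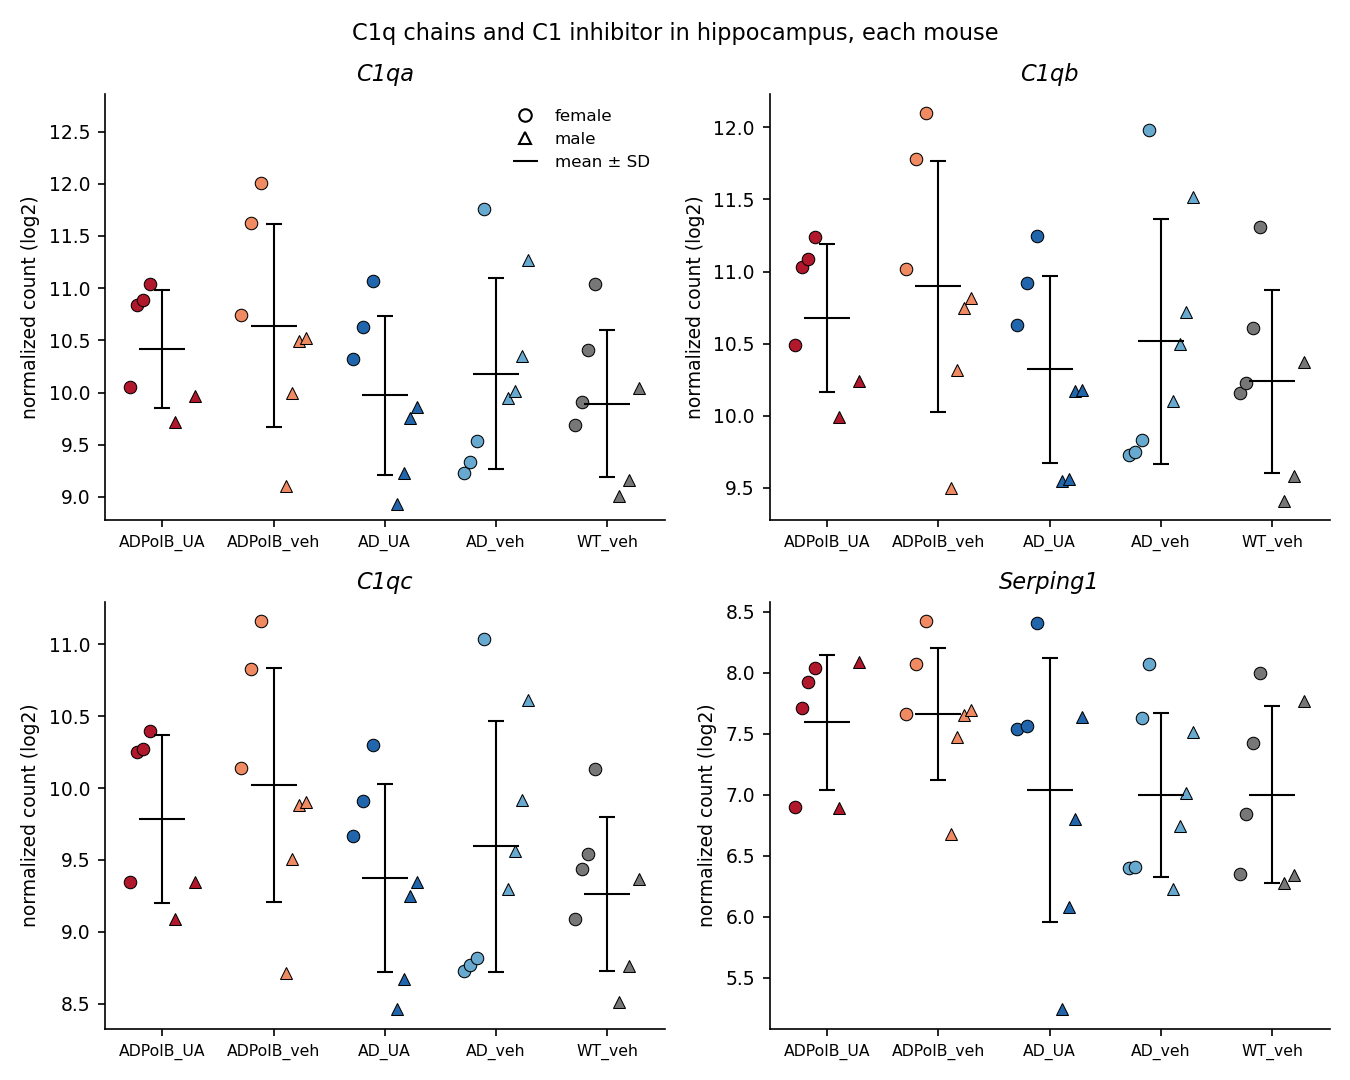
Normalized count (log2) of each gene in each of the 35 mice, by group, with females as circles left of males as triangles, and the group mean ± SD as a black bar. The highest C1qa value of each sex was 12.01 in a female of ADPolB_veh and 11.27 in a male of AD_veh, and in AD_veh 3 of 4 females lay below all males for each C1q chain.

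The mice varied widely in these genes within every group. After group and sex were removed, the residual SD was 0.71 for C1qa, 0.64 for C1qb, 0.65 for C1qc and 0.69 for Serping1, against a median of 0.27 over the 760 genes. C1qa held place 31 in residual SD, Serping1 38, C1qc 50 and C1qb 54.

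The chains varied together from mouse to mouse. With group and sex removed, Pearson's r over 35 mice was 0.992 between C1qa and C1qb (Spearman's rho 0.980), 0.990 between C1qa and C1qc (0.982) and 0.989 between C1qb and C1qc (0.979). Each had a permutation p of 1e-05, the smallest that 100000 draws can give, and 2e-05 after Benjamini-Hochberg adjustment over the 20 relations computed. Without the 2 mice farthest from the median of the first gene, r was still between 0.985 and 0.990. Within a mouse the difference of C1qa and C1qb was nearly constant, with an SD of 0.12 over all mice, and so were those of C1qa and C1qc (0.13) and of C1qb and C1qc (0.10). The slope on C1qa was 0.89 for C1qb and 0.90 for C1qc. A count of changed genes among the chains is therefore not a count of independent measurements.

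Serping1 followed the chains less closely. Its r was 0.624 with C1qa (rho 0.646, permutation p = 5e-05, adjusted 7.69e-05), 0.592 with C1qb (rho 0.633, p = 0.00025, adjusted 0.000312) and 0.604 with C1qc (rho 0.612, p = 0.00013, adjusted 0.000186). Without the 2 farthest mice the values were 0.557, 0.528 and 0.542. Serping1 minus C1qa ran between -3.96 in ADPolB_veh 4 and -1.63 in ADPolB_veh 1, mice of 1 group, with an SD of 0.58. The slope of Serping1 on C1qa was 0.60.

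**Figure D2:**
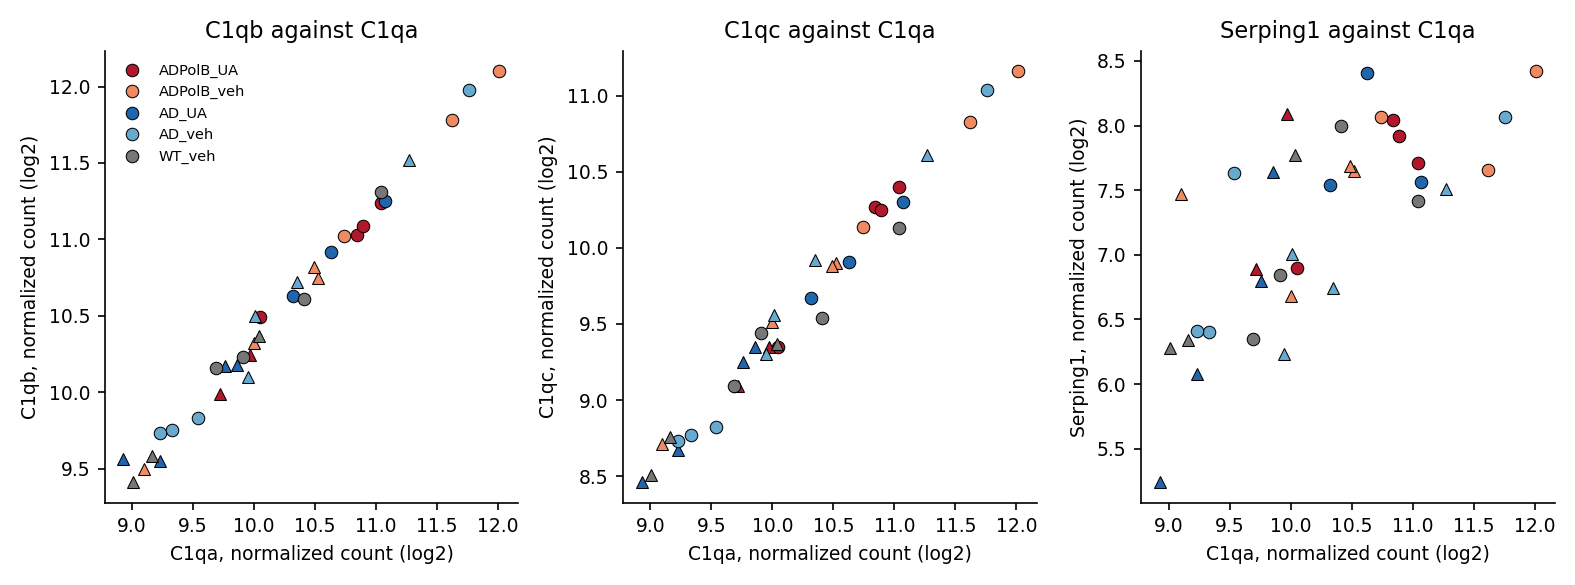
C1qb, C1qc and Serping1 against C1qa, each point a mouse with log2 normalized counts on both axes, colours for groups, circles for females and triangles for males. The C1qb and C1qc points lie along a line (r = 0.992 and 0.990 with group and sex removed), and the Serping1 points scatter about one (r = 0.624).

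Besides each other, the genes most like the chains were Ctss, Tyrobp, Fcer1g and B2m. By Pearson's r over the 35 mice with group and sex removed, the 5 genes nearest to C1qa were C1qb, C1qc, Ctss (0.986), Tyrobp (0.982) and B2m (0.971). Ctss encodes the lysosomal protease cathepsin S, Tyrobp the adaptor DAP12 that signals for TREM2, and B2m the light chain of MHC class I. Those nearest to C1qb were C1qa, C1qc, Tyrobp (0.985), Ctss (0.981) and Fcer1g (0.975), which encodes the common gamma chain of Fc receptors. C1qc had C1qa, C1qb, Ctss (0.985), Tyrobp (0.984) and Fcer1g (0.967) nearest. Serping1 shared none of these genes among its nearest 5, which were Anxa2 (0.868), S100a11 (0.862), Lamb2 (0.834), Add3 (0.823) and Ahnak (0.806). Anxa2 encodes annexin A2, S100a11 a calcium-binding protein of the S100 family, and Lamb2 a laminin chain of basement membranes.

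Of 24 listed markers of microglia and macrophages, 5 were measured: Trem2, Tyrobp, Ctss, Laptm5 and Fcer1g. Against C1qa, r was 0.986 for Ctss, 0.982 for Tyrobp, 0.969 for Fcer1g, 0.939 for Laptm5 and 0.552 for Trem2 (1.32 to 5.44 across mice). The mean of the 5 had an r of 0.959 with C1qa (rho 0.961, permutation p = 1e-05, adjusted 2e-05) and 0.520 with Serping1 (rho 0.606, p = 0.00134, adjusted 0.00158). In hippocampal tissue, fewer microglia and less of each RNA per microglial cell cannot be told apart. C1qa minus this microglial mean was 1.83 ± 0.25 (SD, n = 6) in ADPolB_UA, 2.05 ± 0.22 (n = 7) in ADPolB_veh, 1.80 ± 0.29 (n = 7) in AD_UA, 1.72 ± 0.25 (n = 8) in AD_veh and 1.85 ± 0.30 (n = 7) in WT_veh. The group means ran from 1.72 to 2.05 in this difference and from 9.89 to 10.64 in C1qa itself. Subtracting a mean that correlates with C1qa narrows such a span in any case, so no conclusion was drawn from it. The mean also includes Trem2, which was at -0.48 in ADPolB_veh minus AD_veh, where the other measured markers were between 0.23 and 0.48.

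Other cell markers moved with the chains as well. C1qa had an r of 0.770 with the mean of 8 measured oligodendrocyte genes, 0.709 with that of 2 astrocyte genes (Gja1 and Sox9) and 0.864 with that of B2m and Cd74. It was -0.670 with the mean of 3 neuronal genes (permutation p = 3e-05, adjusted 5.45e-05; rho -0.706), and 0.808 with the median of all genes in a mouse. The relation with the mean of 4 endothelial genes was weak (r = 0.145, rho 0.136, permutation p = 0.406, adjusted 0.406). For Serping1, r was 0.782 with the astrocyte mean, 0.741 with that of B2m and Cd74, 0.516 with the oligodendrocyte mean, -0.616 with the neuronal mean, 0.600 with the median of all genes and 0.209 with the endothelial mean (permutation p = 0.228, adjusted 0.240). Because all values of a mouse come from 1 nCounter measurement, these relations share its scale. Centred on the median of each mouse, the 5 genes nearest to C1qa, to C1qb and to C1qc were the same, and Serping1 kept Anxa2 (0.837) and S100a11 (0.831) as the nearest 2. No listed marker of border macrophages, pericytes, fibroblasts or choroid plexus was measured.

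**Figure D3:**
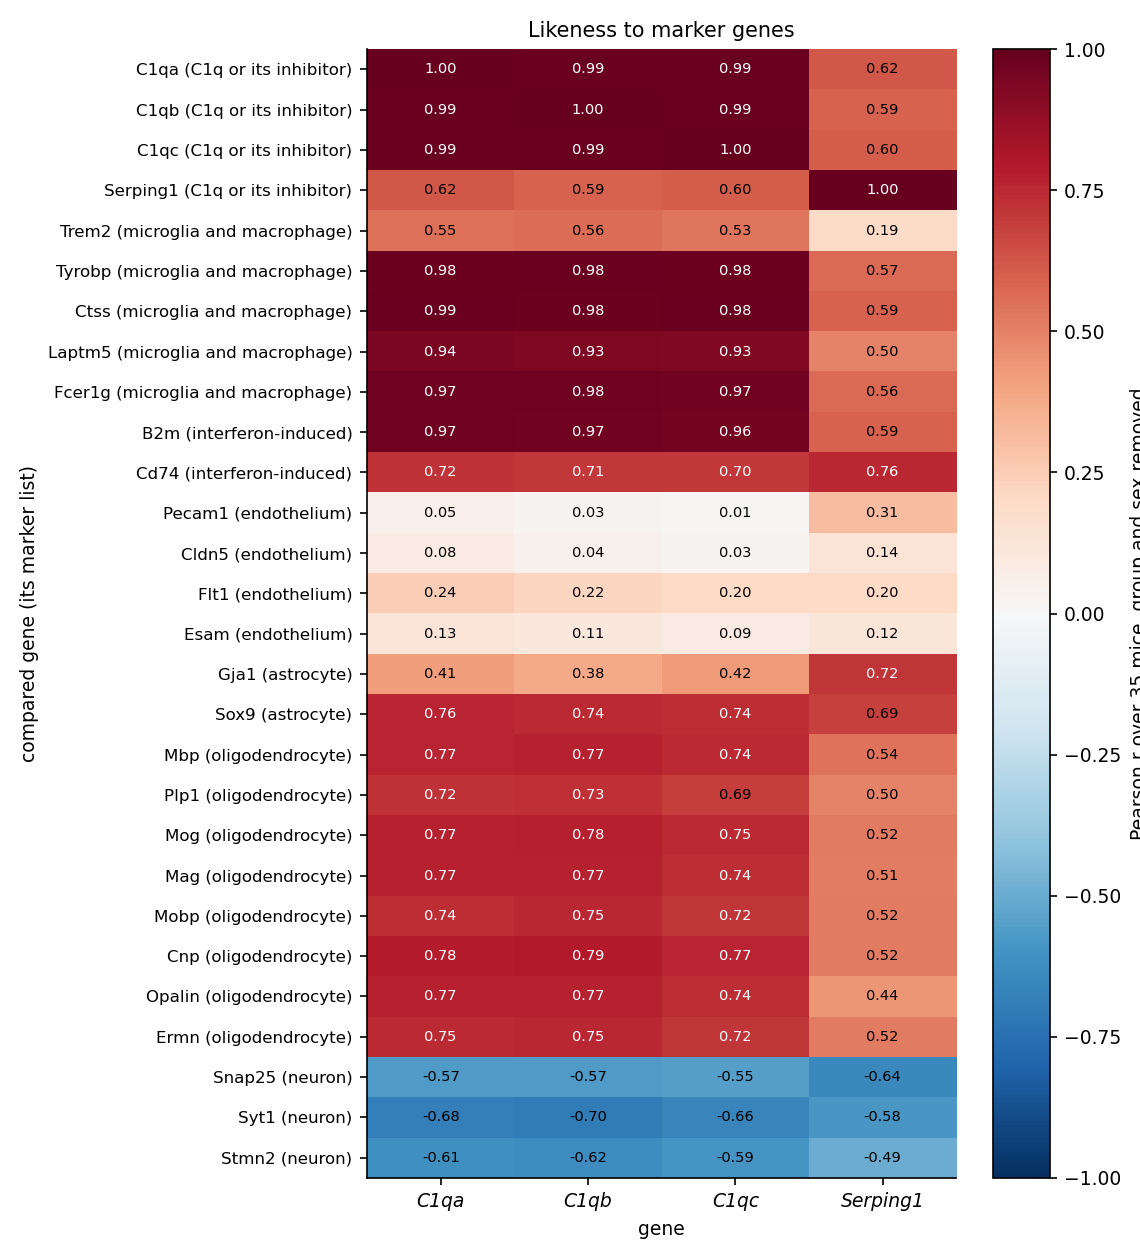
Pearson's r over 35 mice between each of the 4 genes (columns) and the 4 genes and measured cell markers (rows, with their list), after group and sex were removed, red for positive and blue for negative. Tyrobp, Ctss, Laptm5, Fcer1g and B2m stand near the chains, and the 4 endothelial genes near 0, with values for C1qa between 0.05 and 0.24.

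In ADPolB_veh against WT_veh, which addresses the combined genotype, all 4 genes had higher means. C1qa was higher by 0.85 on the log2 scale (SE 0.37, 1.81-fold, 95% interval 0.10 to 1.60), C1qb by 0.76 (SE 0.33, 1.69-fold), C1qc by 0.84 (SE 0.34, 1.79-fold) and Serping1 by 0.75 (SE 0.36, 1.68-fold, 0.02 to 1.47). For each gene 6 of 7 ADPolB_veh mice lay above the WT_veh mean, and 2 or 3 lay above the highest WT_veh mouse. None passed limma's Benjamini-Hochberg threshold of 0.05 over 760 genes: the adjusted p was 0.180 for each chain and 0.185 for Serping1, and 0 of 760 genes passed (0%). The unadjusted p was 0.0277 for C1qa, 0.0296 for C1qb, 0.0176 for C1qc and 0.0446 for Serping1, so 4 of 4 were higher at an unadjusted p below 0.05, as were 157 of all 760 genes (20.7%). The median difference was 0.80 over the 4 genes and 0.09 over all genes.

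The scale and single mice moved these values. Centring each mouse on its median left C1qa at 0.71 (unadjusted p = 0.0342) and Serping1 at 0.60 (unadjusted p = 0.0709), and it turned the unadjusted calls over all genes to 88 higher and 133 lower, against 157 higher and 39 lower as deposited. Quantile normalization gave 82 higher and 101 lower, with C1qa at 0.78 and Serping1 at 0.53. Without 1 mouse at a time, C1qa stayed between 0.68 and 1.05, with unadjusted p up to 0.0839 (without ADPolB_veh 6), and Serping1 between 0.60 and 0.95, with p up to 0.108 (without WT_veh 6). With sample weights, by which limma counts variable mice less, all 4 passed, C1qa at 1.33 (adjusted p = 0.000184) and Serping1 at 1.02 (adjusted p = 0.00202), as did 441 of the 760 genes. Other markers were higher too: 4 of 5 microglial genes at an unadjusted p below 0.05 (median 0.69, Tyrobp at 0.96, Trem2 at -0.01), 5 of 8 oligodendrocyte genes (0.85), 2 of 4 endothelial (0.38) and 1 of 2 astrocyte genes (0.26), with 0 of 3 neuronal genes (-0.12). The mean of the 5 microglial genes ranged between 6.80 and 9.74 in ADPolB_veh and between 7.56 and 8.74 in WT_veh. None of the 5 was at 0, but the background treatment is not given, so 0 need not be the detection floor. The mean includes Trem2, with the low values given above. The part of these markers in the result was not tested.

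In AD_veh against WT_veh, which compares the 3xTgAD genotype with wild type under vehicle, the chains were higher by a smaller amount that did not pass the test. C1qa was higher by 0.34 (SE 0.36, 1.26-fold, adjusted p = 0.707, 95% interval -0.39 to 1.07), C1qb by 0.33 (SE 0.32) and C1qc by 0.37 (SE 0.32). Serping1 differed by 0.04 (SE 0.34, 1.03-fold, adjusted p = 0.955), and its sign turned with median centring (-0.03), with quantile normalization (-0.02) and without AD_veh 2, AD_UA 3 and AD_UA 8 (-0.07). At an unadjusted p below 0.05 stood 0 of the 4 genes and 50 of all 760 (6.58%), and 1 gene of the panel passed after adjustment. Of AD_veh mice 5 of 8 lay above the WT_veh mean of C1qa and 4 of 8 above that of Serping1. Without AD_veh 2 the C1qa difference was 0.13, and without AD_veh 5 it was 0.54.

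In ADPolB_veh against AD_veh, which isolates loss of 1 Polb copy under vehicle, Serping1 was higher by 0.70 (SE 0.34, 1.63-fold, 95% interval 0.00 to 1.40, unadjusted p = 0.0491, adjusted p = 0.873). C1qa was higher by 0.51 (SE 0.36, unadjusted p = 0.160), C1qb by 0.43 (SE 0.32) and C1qc by 0.47 (SE 0.32), all with an adjusted p of 0.873. One of 4 genes was thus higher at an unadjusted p below 0.05, against 3.16% of all genes, and 0 of 760 passed after adjustment. For Serping1, 6 of 7 ADPolB_veh mice lay above the AD_veh mean, and for C1qa 5 of 7. Without AD_veh 4 the Serping1 difference was 0.58 (unadjusted p = 0.108), and without AD_veh 2, AD_UA 3 and AD_UA 8 it was 0.80 (unadjusted p = 0.0132). Without AD_veh 2 the C1qa difference was 0.74 (unadjusted p = 0.0390), and without AD_veh 5 it was 0.32. With sample weights all 4 genes passed, C1qa at 1.32 and C1qc at 1.20 (adjusted p = 0.00280 for each) and Serping1 at 1.03 (adjusted p = 0.00885), among 209 genes of the panel. Unadjusted calls over all genes were 24 higher and 9 lower, and 17 higher and 22 lower with median centring. Both comparisons with ADPolB_veh share its mice, as those with WT_veh share theirs.

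Under Urolithin A the same genotype comparison, ADPolB_UA against AD_UA, gave 0.42 for Serping1 (SE 0.37, adjusted p = 0.563) and 0.27 for C1qa (SE 0.39, adjusted p = 0.687), with C1qb at 0.20 and C1qc at 0.27. None of the 4 had an unadjusted p below 0.05, against 12.6% of all genes. Without AD_veh 2, AD_UA 3 and AD_UA 8 Serping1 was at -0.03 and C1qa at 0.039, since the 2 lowest AD_UA mice then drop out. ADPolB_UA 6, the lowest female of its group in both genes, stays in. Averaged over vehicle and Urolithin A, loss of 1 Polb copy gave 0.56 for Serping1 (SE 0.25, 1.47-fold, unadjusted p = 0.0341, adjusted p = 0.258), 0.39 for C1qa (SE 0.26, 1.31-fold), 0.31 for C1qb and 0.37 for C1qc. One of 4 genes was higher at an unadjusted p below 0.05, and 14.5% of all genes were. Without AD_UA 3 the Serping1 value was 0.44 with a p of 0.0716, and without ADPolB_UA 1 it was 0.46 with a p of 0.0836. It was 0.39 without AD_veh 2, AD_UA 3 and AD_UA 8 (unadjusted p = 0.101). Genes of the panel at an unadjusted p below 0.05 split into 110 higher and 22 lower, and 61 higher and 71 lower with median centring. With sample weights all 4 genes passed, Serping1 at 0.60 (adjusted p = 0.0237) and C1qa at 0.76 (adjusted p = 0.00723).

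Urolithin A gave lower C1q means in both genotypes, and none of the differences passed the test. In ADPolB_UA against ADPolB_veh, C1qa was at -0.40 (SE 0.39, 0.758-fold, 95% interval -1.19 to 0.39), C1qb at -0.38, C1qc at -0.38 and Serping1 at -0.21 (SE 0.37), with adjusted p-values between 0.951 and 0.974. Of the 6 treated mice 3 lay above the ADPolB_veh mean of C1qa and 4 above that of Serping1. None of the 4 had an unadjusted p below 0.05, against 5.66% of all genes.
In AD_UA against AD_veh, C1qa was at -0.16 (SE 0.36, adjusted p = 0.912, 95% interval -0.88 to 0.57), C1qb at -0.14, C1qc at -0.18 and Serping1 at 0.08 (SE 0.34), with 0 of 4 at an unadjusted p below 0.05 and 9.34% of all genes there. These signs rested on single mice. Without AD_veh 2 C1qa was at 0.07, with sample weights at 0.61, without AD_veh 6 at 0.02, and without AD_veh 2, AD_UA 3 and AD_UA 8 together at 0.28, with Serping1 then at 0.65 (unadjusted p = 0.0591). Serping1 was at -0.11 without AD_UA 5 and at 0.34 without AD_UA 3.

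Averaged over both genotypes, Urolithin A gave -0.28 for C1qa (SE 0.26, adjusted p = 0.689, 95% interval -0.81 to 0.26), -0.26 for C1qb, -0.28 for C1qc and -0.06 for Serping1, with 0 of 4 at an unadjusted p below 0.05 and 11.8% of all genes there. Sample weights turned the sign of all 4, to 0.049 for C1qa, 0.025 for C1qb, 0.052 for C1qc and 0.43 for Serping1 (unadjusted p = 0.0390, adjusted p = 0.273). Leaving out AD_veh 2, AD_UA 3 and AD_UA 8 gave an average of -0.061 for C1qa and 0.23 for Serping1. The difference of the treatment effect between genotypes was -0.24 for C1qa (SE 0.53) and -0.29 for Serping1 (SE 0.51, adjusted p = 0.994 for both), with 0 of 4 against 3.82% of all genes, and without those 3 mice it was -0.69 for C1qa and -0.83 for Serping1 (unadjusted p = 0.0804). Set against WT_veh, ADPolB_UA was higher by 0.45 for C1qa (SE 0.38, adjusted p = 0.577) and 0.54 for Serping1 (SE 0.37, adjusted p = 0.513), with C1qb at 0.38 and C1qc at 0.46 and 0 of 4 at an unadjusted p below 0.05, where 10% of all genes were. AD_UA was higher than WT_veh by 0.18 for C1qa (SE 0.37, adjusted p = 0.952), 0.18 for C1qb, 0.20 for C1qc and 0.12 for Serping1, with 0 of 4 against 5.39%, and without those 3 mice by 0.41 for C1qa and 0.58 for Serping1 (unadjusted p = 0.0917). With sample weights all 4 genes passed in ADPolB_UA against WT_veh (C1qa at 0.82, adjusted p = 0.0260, and Serping1 at 1.02, adjusted p = 0.00894), and Serping1 did in AD_UA against WT_veh (0.85, adjusted p = 0.0295).

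**Figure D4:**
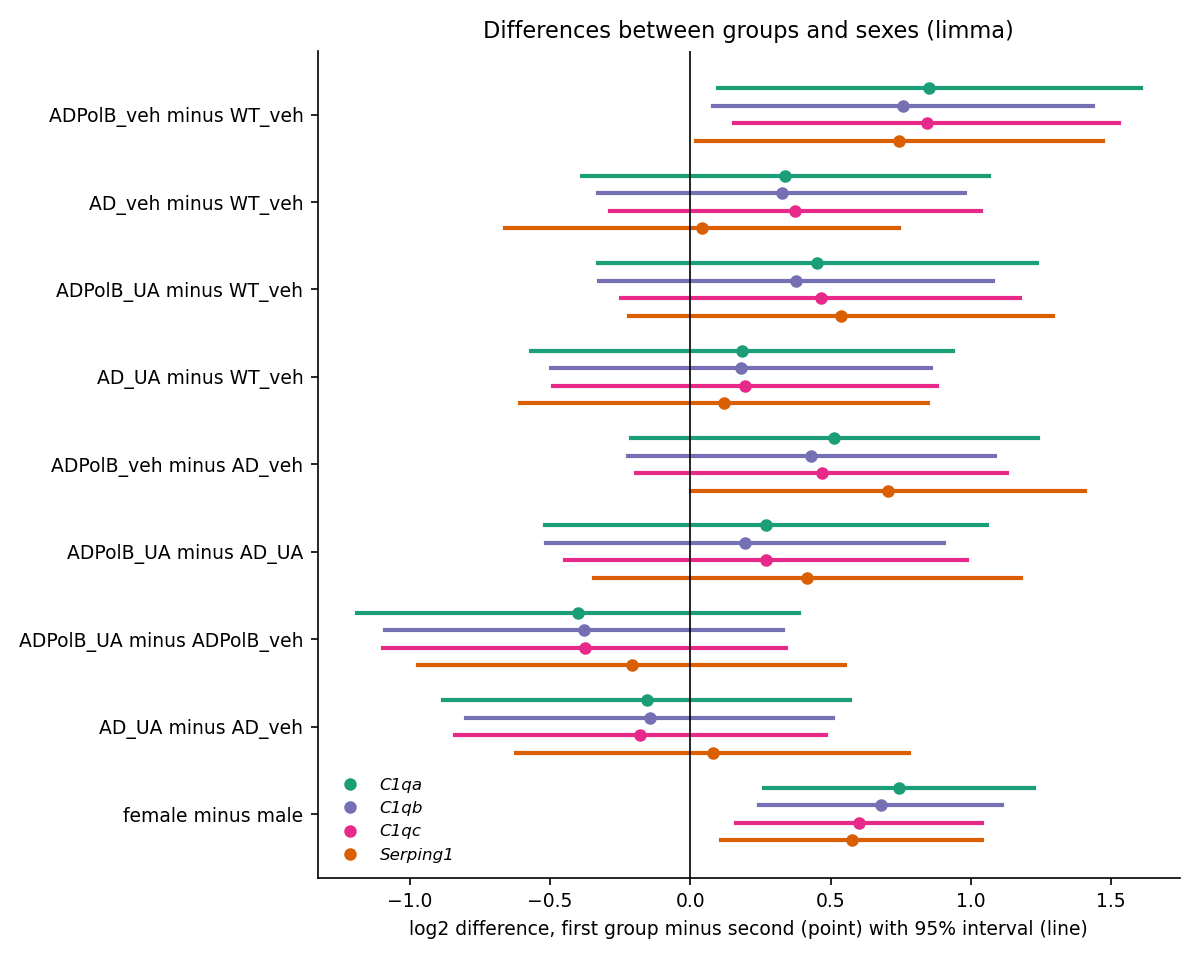
Log2 difference of each gene (first group minus second, point) with the 95% interval of the limma fit (line), for 8 group comparisons and for sex. The intervals of ADPolB_veh minus WT_veh and of female minus male lie above 0 for all 4 genes, and in ADPolB_veh minus AD_veh only that of Serping1 does, before any adjustment.

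Among the 12 comparisons of the model with group and sex terms, sex had the smallest p-values for the chains. Over 18 females and 17 males C1qa ran between 9.23 and 12.01 with a median of 10.685 in females, and between 8.93 and 11.27 with a median of 9.95 in males. With group in the model, females were higher by 0.75 in C1qa (SE 0.24, 1.68-fold, 95% interval 0.26 to 1.23), by 0.68 in C1qb (SE 0.21, 1.60-fold), by 0.60 in C1qc (SE 0.21, 1.52-fold) and by 0.58 in Serping1 (SE 0.23, 1.49-fold). The unadjusted p was 0.00352 for C1qa, 0.00321 for C1qb, 0.00866 for C1qc and 0.0168 for Serping1, and the adjusted p was 0.248 for C1qa and C1qb, 0.303 for C1qc and 0.403 for Serping1. C1qb was the 7th of 760 genes by p and C1qa the 10th. At an unadjusted p below 0.05, 4 of 4 genes were higher in females, against 7.89% of all genes, and 0 of 760 passed after adjustment. Of all genes, those at an unadjusted p below 0.05 split into 60 higher and 5 lower, and into 40 and 24 with median centring.

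Whether genes passed after adjustment depended on single mice and on their weights, but the direction by sex did not turn in any of 35 fits without 1 mouse. In these limma fits C1qa stayed between 0.66 and 0.85, with an unadjusted p up to 0.00831. The highest unadjusted p was 0.00754 for C1qb, 0.0190 for C1qc and 0.0377 for Serping1. With sample weights the chains passed, C1qa at 0.79 (adjusted p = 0.0114), among 21 genes. Without AD_veh 2, a male high in Adora2a with a C1qa of 11.27, C1qa was higher in females by 0.85 and C1qb by 0.77, both with an adjusted p of 0.0458, and 11 genes of the panel passed. Without AD_veh 2, AD_UA 3 and AD_UA 8 together C1qa was at 0.76 with an adjusted p of 0.133. Without AD_veh 6, a female with a C1qa of 11.76, it was at 0.66. Microglial markers were higher in females too, 4 of 5 at an unadjusted p below 0.05 (median 0.54). The highest were Tyrobp at 0.69 and Fcer1g at 0.62, and the exception was Trem2 at 0.15 (unadjusted p = 0.506 in limma). Also higher were B2m at 0.67 and Cd74, the MHC class II invariant chain, at 1.50. Of the 8 oligodendrocyte, 4 endothelial, 2 astrocyte and 3 neuronal genes, 0 had an unadjusted p below 0.05 by sex. The microglial mean ranged between 7.73 and 9.74 in females and between 6.80 and 9.32 in males, and its part in the sex result was not tested.

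Within groups, females were above males in 4 of the 5. In ADPolB_UA, C1qa was 10.05, 10.84, 10.89 and 11.04 in females and 9.72 and 9.97 in males. In ADPolB_veh it was 10.74, 11.62 and 12.01 in females and between 9.10 and 10.52 in the 4 males, and in AD_UA it was 10.32, 10.63 and 11.07 in females and 8.93, 9.23, 9.76 and 9.86 in males. The sexes did not overlap in C1qa in these 3 groups. All females lay above all males for 5.66% of the 760 genes in ADPolB_UA, 5.92% in ADPolB_veh and 4.61% in AD_UA, against 1.05% in AD_veh and 2.24% in WT_veh. In WT_veh females had 9.69, 9.91, 10.41 and 11.04 and males 9.01, 9.16 and 10.04, so that all 4 females lay above the males' mean but 2 of 4 above every male. In AD_veh females had 9.23, 9.33, 9.54 and 11.76 and males 9.95, 10.01, 10.35 and 11.27. Here 3 of 4 females lay below every male and 1 above every male.

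The fitted female minus male difference of C1qa was 0.86 in ADPolB_UA (SE 0.55), 1.43 in ADPolB_veh (SE 0.48, 2.69-fold, unadjusted p = 0.00609, adjusted p = 0.389), 1.23 in AD_UA (SE 0.48, unadjusted p = 0.0165, adjusted p = 0.895), -0.43 in AD_veh (SE 0.45, unadjusted p = 0.343) and 0.86 in WT_veh (SE 0.48, unadjusted p = 0.0851). C1qb and C1qc had the same signs, with 1.29 and 1.21 in ADPolB_veh and -0.39 and -0.51 in AD_veh. All 3 chains had an unadjusted p below 0.05 in ADPolB_veh (6.71% of all genes) and in AD_UA (5.26%), and none of the 4 genes did in ADPolB_UA (1.58% of all genes), AD_veh (4.74%) or WT_veh (1.45%). Serping1 was at 0.15 in ADPolB_UA, 0.68 in ADPolB_veh, 1.40 in AD_UA (SE 0.51, unadjusted p = 0.0105, adjusted p = 0.895), 0.26 in AD_veh and 0.36 in WT_veh. Its AD_UA males included the 2 lowest mice of all, AD_UA 3 and AD_UA 8. Without AD_veh 2, AD_UA 3 and AD_UA 8 the AD_UA difference was 0.62 for Serping1 (unadjusted p = 0.272), 0.86 for C1qa (unadjusted p = 0.137), 0.76 for C1qb and 0.66 for C1qc, so none kept an unadjusted p below 0.05. In AD_veh C1qa was then at -0.14.

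**Figure D5:**
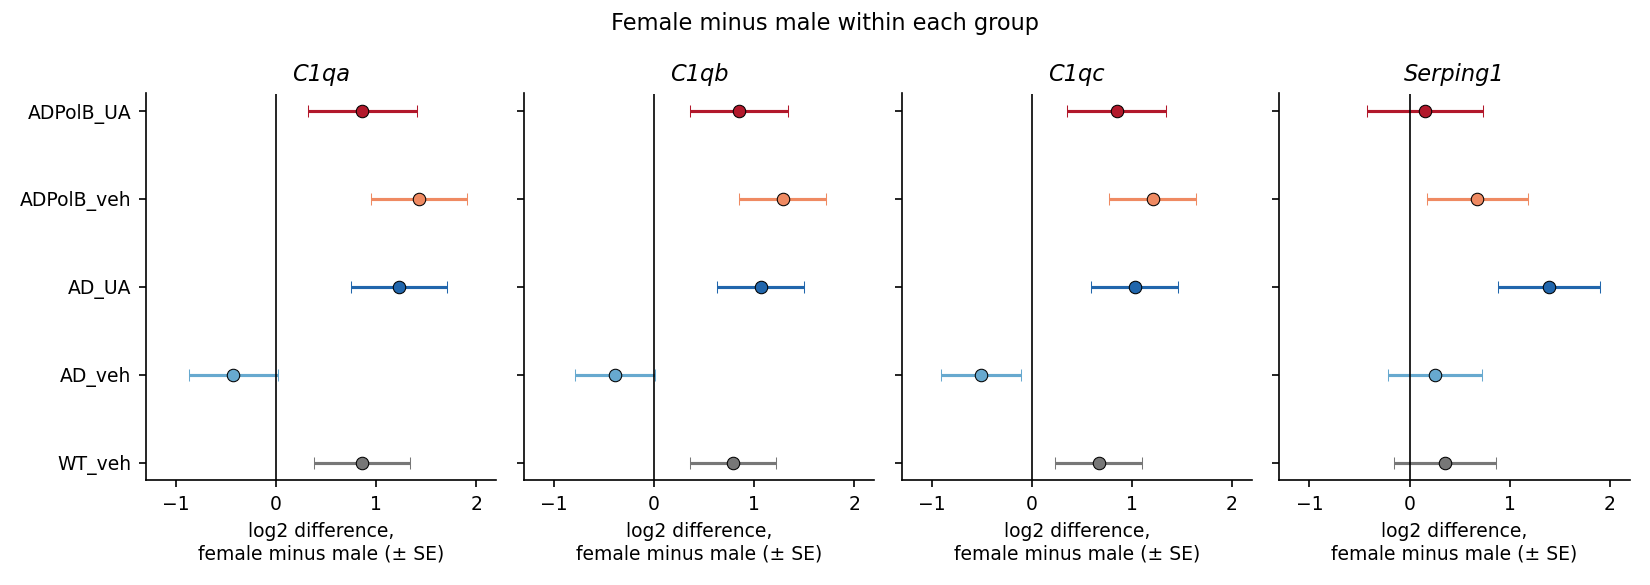
Female minus male log2 difference (point) ± SE (bar) of each gene within each group, from the model with separate means by group and sex. For the chains the points are above 0 in 4 groups and below 0 in AD_veh, and for Serping1 they are above 0 in all 5.

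Group effects on the chains had unlike values in females and males. In females ADPolB_veh exceeded AD_veh by 1.49 in C1qa (SE 0.48, 2.81-fold, unadjusted p = 0.00441, adjusted p = 0.339), by 1.31 in C1qb and by 1.37 in C1qc, and in males the same differences were -0.37, -0.36 and -0.35. Serping1 was at 0.92 in females and 0.50 in males. Against WT_veh, ADPolB_veh was at 1.19 in females and 0.62 in males for C1qa (sex difference 0.57, SE 0.68, unadjusted p = 0.409), and AD_veh was at -0.30 in females and 0.99 in males (sex difference -1.29, SE 0.66, unadjusted p = 0.0594). Urolithin A in ADPolB mice gave -0.75 in females and -0.18 in males (sex difference -0.57, SE 0.73, unadjusted p = 0.441), and in 3xTgAD mice 0.71 in females and -0.95 in males. Without AD_veh 2, AD_UA 3 and AD_UA 8 the values in males were -0.29 for AD_UA minus AD_veh, 0.70 for AD_veh minus WT_veh and -0.076 for ADPolB_veh minus AD_veh. None of the 20 sex differences tested, 5 comparisons by 4 genes, passed after adjustment. At an unadjusted p below 0.05 were the 3 chains in ADPolB_veh minus AD_veh (6.58% of all genes) and in AD_UA minus AD_veh (4.74%), and 0 of 4 genes in ADPolB_veh minus WT_veh (1.45%), AD_veh minus WT_veh (1.71%) and ADPolB_UA minus ADPolB_veh (0.526%). The AD_veh group, with its order of sexes unlike the others, enters 3 of these 5 comparisons.

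The rest of the complement pathway was nearly unmeasured. Of 63 listed components, regulators, receptors and contact system genes, the panel held 2. A2m, alpha-2-macroglobulin, a broad protease inhibitor, ran between 3.58 and 10.20 across the 35 mice, with means of 7.80 ± 1.01 (SD, n = 6) in ADPolB_UA, 8.16 ± 1.24 (n = 7) in ADPolB_veh, 6.38 ± 2.01 (n = 7) in AD_UA, 7.08 ± 1.02 (n = 8) in AD_veh and 7.23 ± 2.15 (n = 7) in WT_veh. Averaged over both treatments it was higher with loss of 1 Polb copy by 1.18 (SE 0.56, 2.27-fold, unadjusted p = 0.0419, adjusted p = 0.268), and in the other 11 comparisons its unadjusted p was above 0.05. Sez6l2, which encodes a neuronal membrane protein of a family that inhibits complement, ran between 11.31 and 11.86. Its differences lay between -0.11 and 0.11, and 0 of 12 had an unadjusted p below 0.05. C1r, C1s, C4 and C3, the steps that C1q starts, were not among the rows, so the activity of the pathway was not analysed here.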

How the data were processed

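Hippocampal RNA of 35 mice was measured on the nCounter platform. The authors' deposited values (760 genes, 1 column a mouse) were taken as log2 from their range and used as they stand; per the series text the submitters worked on the Rosalind platform, and neither the normalization genes nor the background treatment is given in the sources used here. Of the symbols, 759 matched the RefSeq gene table of GRCm38.p6 by symbol or synonym. No 2 of the 35 columns were copies (595 pairs, with up to 4.21% of values equal within 0.005). Each gene was fitted with limma 3.58.1 in R 4.3.3 (lmFit, contrasts.fit, eBayes; group and sex terms, all mice), with two-sided tests in 12 comparisons and Benjamini-Hochberg adjustment over 760 genes. Effects were compared between the sexes in a model with separate group-by-sex means. Correlations used residuals and 100000 permutations. Only the limma fit with group and sex terms was tested on simulated data, in ADPolB_veh minus WT_veh and AD_veh minus WT_veh. The genes, lists and comparisons were chosen with earlier results of these data known. Named beside the 4 genes were the measured complement genes, the 5 genes most like each, and marker list genes. Replicate numbers were checked as pairs: residuals of same-numbered mice of different groups had a mean correlation of -0.06 over 62 pairs, and 7 of 35 mice correlated best with their own number, so they were not treated as paired. Polb was not analysed here. Alternatives covered scaling, the sex term, samples in the fit, moderation, weights, a level filter, a replicate block and each mouse left out.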

Additional observations from a re-analysis of the deposited data

Results flagged for a closer look

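The chains differed between the sexes in their response in 2 of the 5 comparisons tested by sex, at unadjusted p-values only. The effect of ADPolB_veh minus AD_veh was greater in females than in males by 1.86 for C1qa (unadjusted p = 0.00845), 1.67 for C1qb (unadjusted p = 0.0085) and 1.72 for C1qc (unadjusted p = 0.0071), each with an adjusted p of 0.419 over 760 genes in limma. The effect of AD_UA minus AD_veh was greater in females by 1.66 for C1qa (unadjusted p = 0.0174), 1.46 for C1qb (unadjusted p = 0.0202) and 1.54 for C1qc (unadjusted p = 0.0148), each with an adjusted p of 0.747. Of all genes, 6.58% and 4.74% had an unadjusted p below 0.05 for these sex differences. Serping1 had 0.42 (unadjusted p = 0.547) and 1.14 (unadjusted p = 0.111).

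Both differences use the AD_veh mice, in which 3 of 4 females had low chains and AD_veh 6, the other female, had the highest. Of the refits without 1 mouse, leaving out AD_veh 6 raised both differences of the chains most. The first was then 2.46 for C1qa (adjusted p = 0.00909), 2.23 for C1qb and 2.28 for C1qc. The second was 2.26 (adjusted p = 0.0303), 2.01 and 2.10, and all passed the threshold. The lowest values of the first, without ADPolB_veh 1, were 1.55 for C1qa, 1.39 for C1qb and 1.45 for C1qc. Those of the second, without AD_veh 2, were 1.37, 1.19 and 1.28. Over these refits the unadjusted limma p of C1qa reached 0.0327 and 0.0495, and that of C1qb 0.0315 and 0.0555. Without AD_veh 2, AD_UA 3 and AD_UA 8, an alternative chosen after seeing the data, C1qa was at 1.57 (unadjusted p = 0.0267, adjusted p = 0.998) and 1.0 (unadjusted p = 0.184). With median centring it was at 1.72 and 1.47.

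The microglial mean was 9.30 ± 0.48 (SD, n = 3) in ADPolB_veh females, 8.59 ± 0.27 (n = 3) in AD_UA females and 8.23 ± 0.94 (n = 4) in AD_veh females. In males it was 8.06 ± 0.85 in ADPolB_veh, 7.86 ± 0.37 in AD_UA and 8.69 ± 0.44 in AD_veh (n = 4 each). Its part in these differences was not tested. Within the 5 groups, 0 of the 20 checks of the highest and lowest mouse of the 4 genes found a mouse set apart from its group. These checks took females and males together, so they could not show a mouse set apart from its own sex. Among the AD_veh females, AD_veh 6 had a C1qa of 11.76 and the others 9.23, 9.33 and 9.54.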

How the results depend on the processing

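Counts of genes past the threshold moved most with sample weights, by which limma counts variable mice less: 441 in ADPolB_veh minus WT_veh (0 without weights), 5 in AD_veh minus WT_veh (1), 209 in ADPolB_veh minus AD_veh (0), 2 in AD_UA minus AD_veh (0), 20 in ADPolB_UA minus ADPolB_veh (0), 24 in ADPolB_UA minus AD_UA (0), 134 in AD_UA minus WT_veh (1), 285 in ADPolB_UA minus WT_veh (1), 18 for Urolithin A averaged (0), 241 for Polb+/- averaged (0) and 21 by sex (0). Under weights 20 values of the 4 genes passed. Median centring gave 2, 2 and 1 genes in ADPolB_veh minus WT_veh, AD_veh minus WT_veh and by sex, and quantile normalization 3, 0 and 1. Without the sex term ADPolB_veh minus WT_veh had 1. Trend and robust moderation gave 0 in AD_veh minus WT_veh and ADPolB_UA minus WT_veh, the fit on only the groups compared 0 in AD_UA minus WT_veh and ADPolB_UA minus WT_veh, and leaving out the dimmest 25% of genes, Serping1 among them, 0 in these 3. The replicate block gave 1 in ADPolB_veh minus WT_veh and moved none of the 4 genes across the threshold.

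Signs turned at small values. Serping1 in AD_veh minus WT_veh was -0.026 (median centring), -0.019 (quantile), -0.011 (weights) and -0.073 without AD_veh 2, AD_UA 3 and AD_UA 8, an alternative chosen after seeing the data. AD_UA minus AD_veh was 0.61, 0.54 and 0.55 for C1qa, C1qb and C1qc with weights and 0.28, 0.24 and 0.23 without those 3 mice. Without them Serping1 was -0.029 in ADPolB_UA minus AD_UA and 0.23 for Urolithin A averaged. Weights gave 0.049, 0.025, 0.052 and 0.43 for C1qa, C1qb, C1qc and Serping1 for Urolithin A averaged. The cause was not tested.

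With each mouse left out in turn, the count was 0 to 5 in ADPolB_veh minus WT_veh (5 without WT_veh 5), 0 to 2 in AD_veh minus WT_veh (2 without AD_veh 3), 0 to 2 in ADPolB_UA minus WT_veh (2 without WT_veh 5), 1 to 3 in AD_UA minus WT_veh (3 without AD_UA 1), 0 to 1 in ADPolB_UA minus ADPolB_veh and for Urolithin A averaged, 0 to 9 for Polb+/- averaged (9 without AD_veh 2) and 0 to 11 by sex (11 without AD_veh 2). Serping1 spanned -0.11 to 0.24 in AD_veh minus WT_veh, -0.11 to 0.34 in AD_UA minus AD_veh, -0.073 to 0.37 in AD_UA minus WT_veh and -0.17 to 0.076 for Urolithin A averaged. AD_UA minus AD_veh spanned -0.34 to 0.068 for C1qa, -0.31 to 0.060 for C1qb and -0.34 to 0.023 for C1qc. Over all values of the 4 genes, 1013 such refits kept direction and side of the threshold, 23 turned sign and 8 newly passed.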
